A study of Rattus norvegicus with 14 samples.

Results

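The 8 genes described here encode the liver enzymes that make, spend and recycle the methyl donor S-adenosylmethionine: Mat1a, Gnmt, Gamt, Pemt, Ahcy, Bhmt, Cbs and Cth. They were chosen by gene symbol, and every probe set of the array whose platform annotation gives one of these symbols was taken, which gave 8 of 4736 genes and 12 of 8740 probe sets besides controls. All 12 passed the filter on low intensity, and each is annotated to 1 symbol. Gnmt has 3 probe sets, Cth and Gamt have 2 each, and the other genes have 1 each, so probe sets of a gene share a transcript and are not separate measurements of the diet.

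The RNA came from livers of male rats aged 74 days that had eaten a vitamin A-deficient or a vitamin A-sufficient special diet for 53 days. Each diet has 7 Affymetrix arrays, of which 4, numbered 1 to 4, were made from about 10 µg of total RNA and 3, numbered 1, 2 and 4, from about 2 µg. The shift between amounts was removed and the arrays that carry 1 diet and 1 number were averaged, which left 4 values per diet, called replicates here. Replicate 3 of each diet has only a 10 µg array behind it. Whether the arrays of 1 number come from 1 liver is not stated in the labels, so p-values describe only the spread between these averaged values. The labels give neither the strain of the rats nor the vitamin A content of the diets or livers.

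In hepatocytes, Mat1a joins methionine to ATP to form S-adenosylmethionine, methyltransferases pass its methyl group on and leave S-adenosylhomocysteine, and Ahcy splits that product into adenosine and homocysteine. Homocysteine is either methylated back to methionine, by Bhmt with betaine or by methionine synthase with folate as the donor, or led through Cbs and Cth to cysteine. Gnmt methylates glycine to sarcosine and is known to buffer the supply of S-adenosylmethionine, and in rat liver its expression and activity are known to respond to retinoic acid.

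Levels are log2 of the scaled intensity plus 16, a scale on which an intensity of 0 is 4, and differences are deficient minus sufficient on that scale. A difference passed where its p-value from limma, adjusted by Benjamini-Hochberg over all 5244 probe sets tested, was under 0.05. Levels are compared only within a probe set, since the brightness of different probe sets cannot be set side by side. Precision is limited by how few arrays there are.

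By this test 0 of the 12 probe sets passed, higher or lower, while 90 of all 5244 did (1.72%), 38 of them higher in deficient livers (0.725%) and 52 lower (0.992%). The largest differences were those of Cth, 0.89 and 1.02, and Bhmt, 0.95, followed by Mat1a at 0.39 and Ahcy at 0.35. For these 5 probe sets the unadjusted limma p was under 0.05, as it was for 758 of all 5244 (14.5%). The 12 differences ran from -0.13 to 1.02, with a median of 0.26 against 0.04 over all probe sets tested. Of the 12, 9 were above 0, against 58.4% of all probe sets tested, and the 9 include all 3 of Gnmt and both of Cth. All 4 deficient replicates lay above all 4 sufficient replicates in 3 of the 12 probe sets, both of Cth and that of Ahcy, against 5.84% of all probe sets, and none of the 12 had them all below, against 3.07%. In bulk liver, fewer cells of a type and less RNA per cell cannot be told apart.

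**Figure D1:**
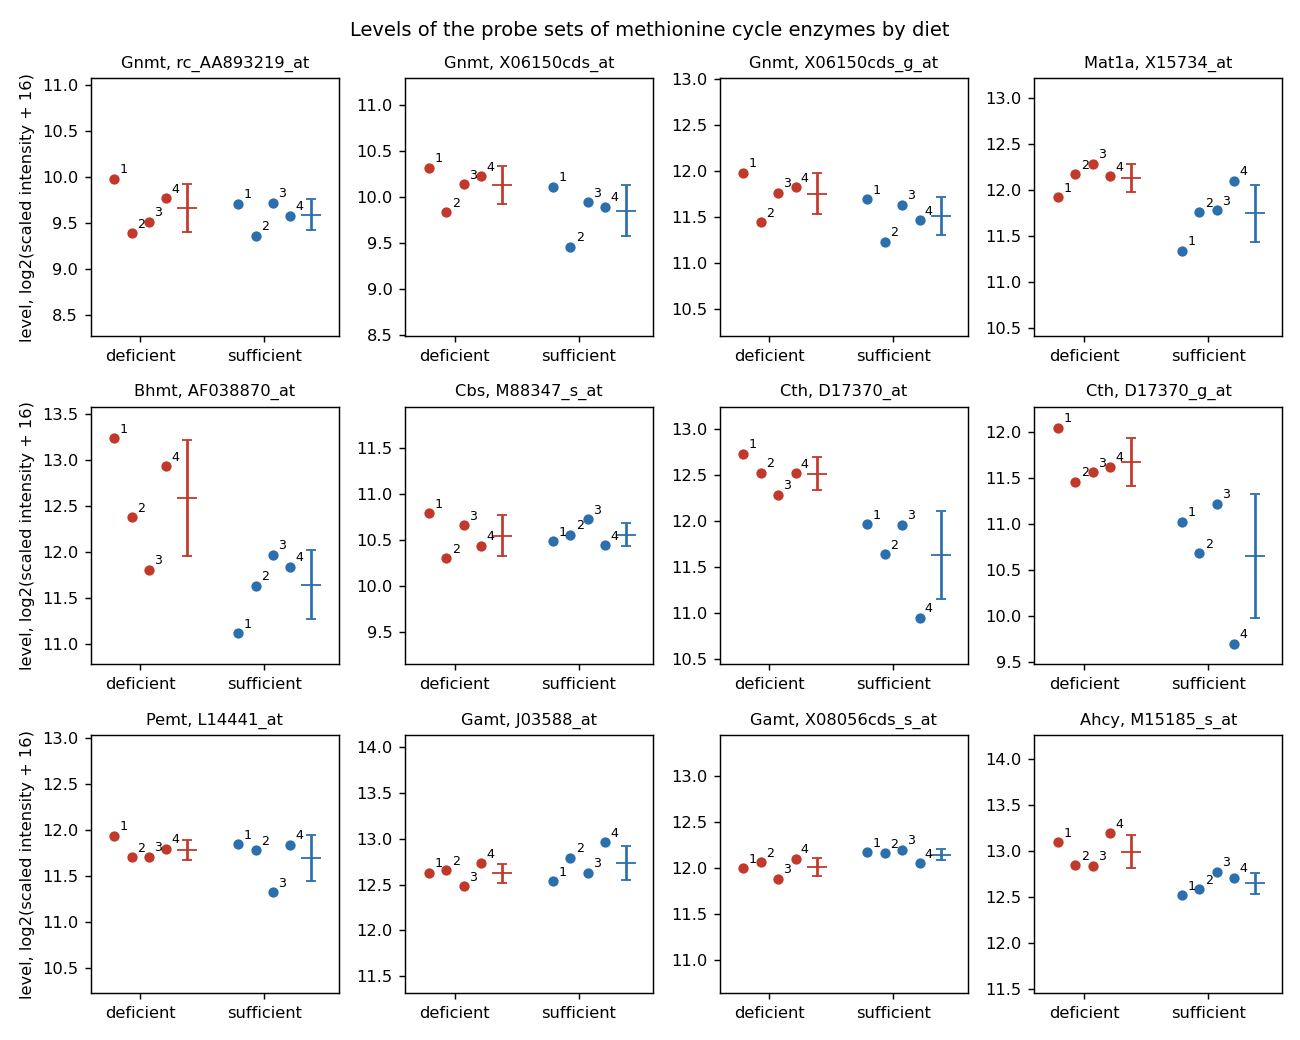
Level of each probe set, as log2 of the scaled intensity plus 16, in the 4 deficient and the 4 sufficient replicates, with the replicate number beside each point and the mean and SD at the right of each group. Every panel spans the same log2 range, and the groups are apart in both Cth panels and the Ahcy panel and overlap in the other 9.

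The diet difference passed for 4 of the 12 probe sets when all 14 arrays were fitted with a random effect for arrays that share a diet and number, called the block fit here. These were Bhmt with a difference of 1.04 and an adjusted limma p of 0.0103, Cth with 0.94 and 0.00308 for D17370_at and 1.08 and 0.0123 for D17370_g_at, and Ahcy with 0.37 and 0.0300. That fit called 250 of all 5244 probe sets (4.77%) and used 1 correlation of 0.363 between repeat arrays for every probe set. From the SD between repeat arrays and the SD between replicates of a diet (0.054 and 0.519 for Bhmt, 0.089 and 0.360 for Cth D17370_at, 0.138 and 0.511 for Cth D17370_g_at, 0.089 and 0.150 for Ahcy), the correlation of these probe sets themselves is 0.989, 0.941, 0.930 and 0.702. The block fit therefore counts their repeat arrays largely as separate samples, and its p-values for them are too small. With repeat arrays averaged, the adjusted limma p of the same 4 probe sets was 0.140, 0.0607, 0.110 and 0.174. These averaged values are the ones used below, except where other fits or single arrays are named. The alternative fits below include the block fit and a fit of the 14 arrays as separate samples, which also counts repeat arrays as separate.

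The promoters of Bhmt, Cth and Ahcy, the members with the smallest p, are shown with that of Gnmt, the gene of the cycle known to respond to retinoids. Each is the 250 bases before the annotated start, 5′ to 3′ in the direction of transcription, from RefSeq on the GRCr8 rat assembly, in which all 8 genes had a promoter entry. Capitals mark the hexamer AGGTCA, which nuclear receptors such as the retinoic acid receptors are known to bind as pairs, or its related form GGGTCA, or the related form written AGTTCA, or the related form written GGTTCA, and also the GC box CCGCCC and the TATA box TATAAA, each searched on both strands, so a hexamer may be printed as its reverse complement. The 4 regions are chr2:26614430-26614679 on the minus strand for Bhmt, chr2:249661067-249661316 on the minus strand for Cth, chr3:164044563-164044812 on the minus strand for Ahcy and chr9:21752032-21752281 on the plus strand for Gnmt.
Bhmt: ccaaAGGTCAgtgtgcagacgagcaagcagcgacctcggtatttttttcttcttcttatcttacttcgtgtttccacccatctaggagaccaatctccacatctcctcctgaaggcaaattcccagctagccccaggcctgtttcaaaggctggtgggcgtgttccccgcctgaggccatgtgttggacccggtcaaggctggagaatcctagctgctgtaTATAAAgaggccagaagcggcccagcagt
Cth: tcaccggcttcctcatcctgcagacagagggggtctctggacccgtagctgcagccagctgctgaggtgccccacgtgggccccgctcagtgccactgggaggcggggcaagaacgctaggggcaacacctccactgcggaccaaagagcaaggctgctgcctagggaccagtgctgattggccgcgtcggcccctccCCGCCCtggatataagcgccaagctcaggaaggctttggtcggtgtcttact
Ahcy: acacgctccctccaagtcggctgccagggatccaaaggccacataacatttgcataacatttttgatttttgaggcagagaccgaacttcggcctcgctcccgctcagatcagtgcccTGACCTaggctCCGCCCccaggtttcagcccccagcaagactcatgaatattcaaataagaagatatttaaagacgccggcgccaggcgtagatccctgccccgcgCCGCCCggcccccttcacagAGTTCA
Gnmt: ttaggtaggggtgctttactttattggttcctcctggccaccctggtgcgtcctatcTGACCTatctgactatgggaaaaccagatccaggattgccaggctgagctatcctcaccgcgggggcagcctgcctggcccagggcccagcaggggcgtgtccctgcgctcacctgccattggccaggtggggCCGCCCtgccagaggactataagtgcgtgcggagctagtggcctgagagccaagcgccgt

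AGGTCA began 246 bases before the start of Bhmt, and on the other strand it lay 193 bases before that of Gnmt and 132 before that of Ahcy. AGTTCA lay 6 bases before the start of Ahcy. Cth held none of the 4 hexamers and a GC box 52 bases before the start. Of 33469 rat promoters of the same length, 14.1% held AGGTCA, 39.1% at least 1 of the 4 hexamers, 30.5% the GC box and 12.9% TATAAA, which in Bhmt lay 29 bases before the start. Of the 4 genes not shown, on chromosome 16 (Mat1a), 20 (Cbs), 10 (Pemt) and 7 (Gamt), only Pemt held a hexamer, GGGTCA. A match is a stretch of letters and not evidence that a factor binds there.

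Mat1a, which encodes the catalytic subunit of the liver's own methionine adenosyltransferase, opens the cycle. Its levels were 11.92, 12.17, 12.28 and 12.15 in deficient replicates 1 to 4, against 11.34, 11.76, 11.78 and 12.10 in sufficient replicates 1 to 4. The groups overlapped only through deficient replicate 1, the lowest of its diet, which lay below sufficient replicate 4, the highest of its diet. The difference was 0.39 (SE 0.15, n = 4 each), which is 1.31-fold, and the adjusted limma p was 0.274. Mat1a passed in none of the 22 alternative fits, in which the difference ran from 0.25 to 0.51.

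Gnmt, the glycine methyltransferase, was measured by 3 probe sets. The brightest, X06150cds_g_at, read 11.98, 11.44, 11.76 and 11.83 in deficient replicates 1 to 4 and 11.70, 11.23, 11.63 and 11.46 in sufficient replicates 1 to 4. The groups overlapped, and replicate 2 was the lowest of both diets. Its difference was 0.25 (SE 0.14, n = 4 each, 95% interval -0.07 to 0.56), and the adjusted limma p was 0.492.

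The other 2 Gnmt probe sets gave differences of 0.28 (SE 0.16, adjusted limma p 0.490) for X06150cds_at and 0.07 (SE 0.15, adjusted limma p 0.904) for rc_AA893219_at. All 3 intervals include 0, and the upper bounds of 0.56, 0.63 and 0.40 limit a higher Gnmt level in deficient liver to 1.48-fold, 1.55-fold and 1.32-fold. The lower bounds were -0.07, -0.07 and -0.26. None of the 3 passed in any of the 22 alternatives. The difference of rc_AA893219_at had the other sign without deficient replicate 1 (-0.04) and without sufficient replicate 2 (-0.01). Without sufficient replicate 2 the other probe sets gave 0.15 for X06150cds_at and 0.16 for X06150cds_g_at.

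Gamt, which methylates guanidinoacetate to creatine, had differences below 0 in both probe sets. J03588_at read 12.63, 12.66, 12.48 and 12.73 in deficient replicates 1 to 4, against 12.54, 12.79, 12.63 and 12.96 in sufficient replicates 1 to 4. X08056cds_s_at read 12.00, 12.07, 11.89 and 12.10 in deficient replicates 1 to 4, against 12.17, 12.16, 12.21 and 12.06 in sufficient replicates 1 to 4. The groups overlapped in both probe sets, which also ordered the replicates differently. The differences were -0.11 (SE 0.11) and -0.13 (SE 0.09), with adjusted limma p of 0.758 and 0.587.

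Pemt, which methylates phosphatidylethanolamine to phosphatidylcholine, read 11.94, 11.70, 11.71 and 11.80 in deficient replicates 1 to 4 and 11.85, 11.78, 11.32 and 11.84 in sufficient replicates 1 to 4. The groups overlapped, and sufficient replicate 3 stood below all other replicates of both diets. The difference was 0.09 (SE 0.13, 95% interval -0.20 to 0.38, adjusted limma p 0.845), and without sufficient replicate 3 it was -0.04. The 3 methyltransferases gave 6 differences between -0.13 and 0.28, none of which passed.

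Ahcy, which removes S-adenosylhomocysteine, an inhibitor of methyltransferases, read 13.10, 12.85, 12.84 and 13.20 in deficient replicates 1 to 4, against 12.53, 12.59, 12.78 and 12.71 in sufficient replicates 1 to 4. Every deficient replicate lay above every sufficient one, with the lowest deficient value only just above the highest sufficient one. In deposited intensity the 7 deficient arrays ranged from 14110 to 19479 with a median of 16121, and the 7 sufficient arrays from 10944 to 13938 with a median of 12504. The difference was 0.35 (SE 0.11, n = 4 each, 95% interval 0.10 to 0.59), 1.27-fold, and the adjusted limma p was 0.174. It ranged from 0.28 to 0.42 over the 22 alternatives, with adjusted limma p from 0.0105 to 0.398. Ahcy passed only in 2 of them, the block fit and the fit of 14 separate arrays, and the latter gave the lowest p.

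Bhmt, which returns homocysteine to methionine with a methyl group from betaine, was spread widely in both diets. It read 13.23, 12.38, 11.80 and 12.93 in deficient replicates 1 to 4, against 11.12, 11.63, 11.97 and 11.84 in sufficient replicates 1 to 4. Deficient replicates 1, 2 and 4 lay above all sufficient replicates, and deficient replicate 3 lay below sufficient replicates 3 and 4. In deposited intensity the 7 deficient arrays ranged from 7070 to 19810 with a median of 15655, and the 7 sufficient arrays from 4419 to 7941 with a median of 6412.

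The mean level of Bhmt was 12.59 ± 0.63 in deficient livers and 11.64 ± 0.37 in sufficient livers (SD, n = 4 each). The difference was 0.95 (SE 0.28, 95% interval 0.33 to 1.57), 1.93-fold, and the adjusted limma p was 0.140, rank 239 of 5244 by p. It was 1.21 with an adjusted limma p of 0.0407 without deficient replicate 3, and 0.73 with 0.274 without deficient replicate 1. Over the 22 alternatives the difference stayed above 0, from 0.73 to 1.30, with adjusted limma p from 0.00414 to 0.321, and it passed in 3. These were the fit without deficient replicate 3, the block fit and the fit of 14 separate arrays, and the last gave the lowest p.

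Cbs, which condenses homocysteine with serine to cystathionine, read 10.79, 10.30, 10.66 and 10.44 in deficient replicates 1 to 4 and 10.48, 10.56, 10.73 and 10.44 in sufficient replicates 1 to 4. The groups lay over each other. The difference was -0.01 (SE 0.13, 95% interval -0.30 to 0.28, adjusted limma p 0.992), and its sign differed between alternatives, from -0.09 to 0.08.

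Cth, which cleaves cystathionine to cysteine, was the member with the smallest p. D17370_at read 12.73, 12.53, 12.29 and 12.52 in deficient replicates 1 to 4, against 11.96, 11.64, 11.96 and 10.95 in sufficient replicates 1 to 4. D17370_g_at read 12.04, 11.46, 11.56 and 11.62 in deficient replicates 1 to 4, against 11.02, 10.68, 11.22 and 9.70 in sufficient replicates 1 to 4. All deficient replicates lay above all sufficient ones in both probe sets, and sufficient replicate 4 was the lowest of its diet in both.

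In deposited intensity D17370_at ranged from 9916 to 13235 with a median of 11420 on the 7 deficient arrays, and from 3403 to 7887 with a median of 6429 on the 7 sufficient arrays. Its difference was 0.89 (SE 0.21, n = 4 each), 1.85-fold with a 95% interval of 1.35 to 2.53, and the adjusted limma p was 0.0607, rank 104 of 5244. For D17370_g_at the difference was 1.02 (SE 0.28), 2.02-fold with an interval of 1.32 to 3.10, and the adjusted limma p was 0.110. Without sufficient replicate 4 the D17370_at difference was smaller, 0.66, and passed (adjusted limma p 0.0432), and it also passed without sufficient replicate 1 (1.00, adjusted limma p 0.0467). It passed in 5 of 22 alternatives, with differences from 0.66 to 1.11 and adjusted limma p from 0.00174 to 0.164. Beside these leave-outs, the 5 are the fit with array weights, the block fit and the fit of 14 separate arrays. The last gave the lowest p.

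**Figure D2:**
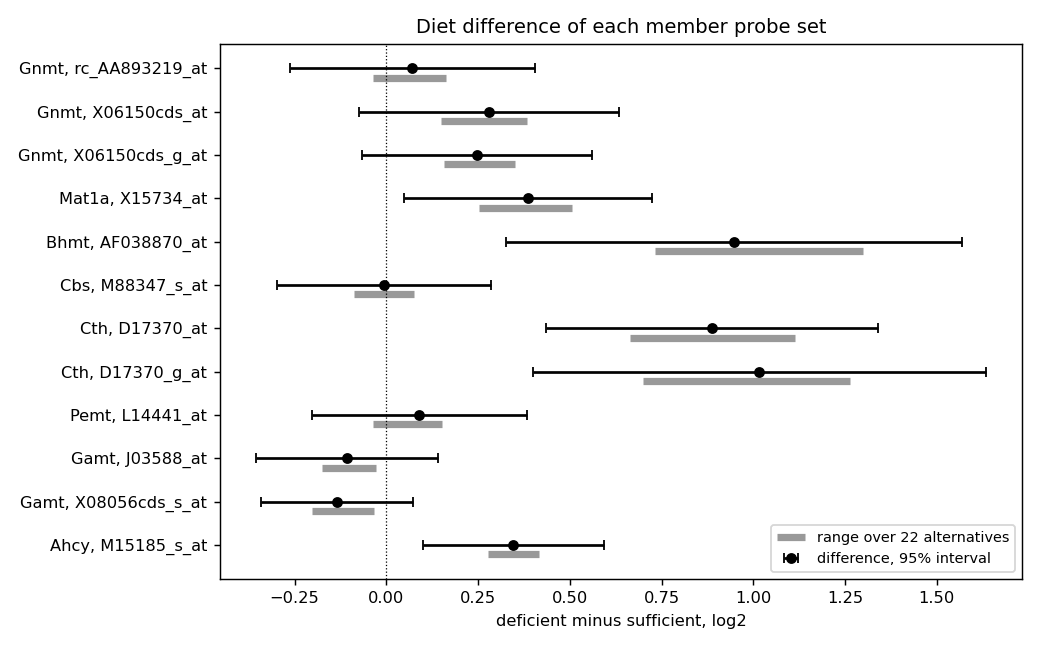
Deficient minus sufficient difference on the log2 scale for each probe set, as a point with its 95% interval from limma, above a grey bar for the range over the 22 alternative fits. The bars of Bhmt, both Cth probe sets, Ahcy, Mat1a and the 2 X06150 probe sets of Gnmt lie wholly above 0, while the bar of Cbs spans -0.09 to 0.08.

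Cbs and Cth are consecutive steps, and the level of Cth D17370_at minus that of Cbs averaged 1.97 ± 0.26 in deficient livers and 1.08 ± 0.41 in sufficient livers (SD, n = 4 each). This comparison was chosen after the values were seen, and since Cbs differed by -0.01 it restates the difference of Cth. Only its change between diets can be read, not its size. It was 1 of 3 such comparisons computed. Those of Bhmt minus Cbs and of Gnmt minus Gamt differed between diets by 0.95 and 0.35, with overlapping groups.

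The diet differences were also computed at each RNA amount, with n = 4 per diet at 10 µg and n = 3 at 2 µg. Bhmt differed by 0.96 at 10 µg, where the diets overlapped, and by 1.30 at 2 µg, where they did not. Cth differed by 0.86 and 1.11 for D17370_at and by 1.00 and 1.26 for D17370_g_at, with the diets apart at both amounts. Ahcy differed by 0.36 and 0.42, again apart at both amounts. Mat1a gave 0.41 and 0.32, the brightest Gnmt probe set 0.22 and 0.32, and Cbs -0.04 and 0.06, all with overlapping diets. The share of all tested probe sets with the diets apart at a single amount was not computed. With 3 arrays against 3, an exact permutation p cannot be under 0.1. Arrays of the same diet and number deviated together, so the 2 µg arrays are not a separate test of the diet.

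The amount of RNA itself, 2 µg minus 10 µg over the 14 arrays, gave differences from -0.26 for Mat1a to 0.23 for Pemt. By limma 0 of the 12 passed, as for all probe sets (0%), with 1 of the 12, Pemt, at an unadjusted p under 0.05, against 347 of all 5244. That fit takes the 14 arrays as separate samples, although arrays of 1 diet and number deviated together. With the 6 pairs of arrays as a block, limma called 2 probe sets, none of them among the 12. In that block fit 632 of all 5244 had an unadjusted p under 0.05. For the interaction of diet with amount, limma called 0 of the 12 and 0 of all probe sets (0%), with 0 of the 12 and 96 of all at an unadjusted p under 0.05.

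Within a diet the members did not share a single order of replicates. Bhmt and Ahcy varied together, with a Pearson r of 0.872 between their deviations from the diet means over the 8 replicates. In deficient livers both were highest in replicates 1 and 4, and in sufficient livers both were highest in replicates 3 and 4. Mat1a and Cth D17370_at varied in opposite order, with r of -0.841: sufficient replicate 4 had the highest Mat1a level of its diet and the lowest Cth level, and deficient replicate 1 had the lowest Mat1a level and the highest Cth level. The 3 Gnmt probe sets gave r from 0.862 to 0.960 with each other and the Cth pair 0.961, whereas the Gamt pair gave -0.020. The r of Bhmt with Ahcy is the highest, and that of Mat1a with Cth D17370_at the lowest, of all pairs of member probe sets of different genes. Extremes picked from many pairs over only 8 replicates can be large without any link between the genes. The members also share the arrays and their scaling, so these values are descriptions.

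**Figure D3:**
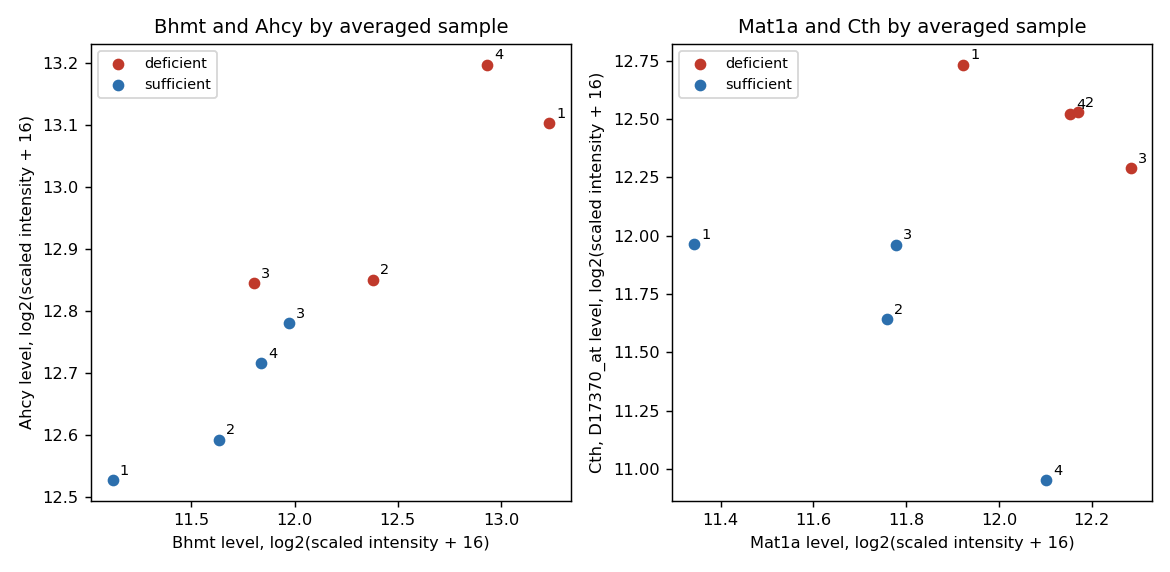
Levels, as log2 of the scaled intensity plus 16, of Bhmt and Ahcy (left) and of Mat1a and Cth D17370_at (right) in the 4 deficient and 4 sufficient replicates, with the replicate number beside each point. Ahcy tended to be higher where Bhmt was higher within a diet (r of deviations 0.872), and Cth tended to be lower where Mat1a was higher within a diet (-0.841). These are the highest and the lowest r of deviations of all pairs of member probe sets of different genes.

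For each member's brightest probe set the most similar patterns were sought among 4317 probe sets with 1 symbol, by Pearson r over the 8 replicates, which includes the diet difference. Bhmt was most like Mtrf1l (0.970), Sult1a1 (0.961) and Pik3c2g (0.946), and Ahcy most like Glyatl2 (0.968), Aqp9 (0.960) and Ralgapa1 (0.948). Cth was most like Map3k1 (0.967), Pam (0.967) and Serpina7 (0.954), the last with a difference of 1.86 and an adjusted limma p of 0.0863. Mat1a was most like Tef (0.971), Nmt1 (0.965) and Arf4 (0.933), and Gnmt most like Tspan17 (0.935), Med13l (0.923) and Smad4 (0.921). For Cbs the order was Ing4 (0.976), Nf1 (0.913) and Mapk14 (0.910), for Pemt Mmp7 (0.962), Prkce (0.935) and Timm17a (0.934), and for Gamt Rps16 (0.938), Ccdc124 (0.899) and Atp2a2 (0.895). These 3 per member are the highest of 4317 values of r over only 8 replicates, and they are given as descriptions.

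Around the 8 genes, 7 further lists of the pathway were taken, with 68 tested probe sets of 47 genes. By limma 1 of the 68 was higher in deficient livers, that of Abcb4, and 0 were lower, with 13 of the 68 at an unadjusted p under 0.05, against 14.5% of all probe sets tested. Their median difference was -0.05, against 0.26 for the 12 probe sets of the members and 0.04 over all probe sets tested. In the block fit 7 of the 68 passed, 2 higher and 5 lower, against 4.77% of all probe sets. Block fit values of single genes below carry its shared correlation too, and how closely their own repeat arrays agree was not computed.

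Abcb4, the canalicular transporter that moves phosphatidylcholine into bile, rose to 9.94 ± 0.15 in deficient livers, against 9.14 ± 0.33 in sufficient livers (SD, n = 4 each). All deficient values lay above all sufficient ones, the difference was 0.80 (SE 0.17) and the adjusted limma p was 0.0384. It passed in 10 of 22 alternatives, with differences from 0.66 to 0.93 and adjusted limma p from 0.00256 to 0.214. The block fit and the fit of 14 separate arrays are among the 10, and the latter gave the lowest p. Without sufficient replicates 2, 3 and 4 in turn the adjusted limma p was 0.0778, 0.112 and 0.0598, and without deficient replicates 1, 3 and 4 it was 0.0789, 0.0983 and 0.124. It was also 0.0642 with scaling to a common median. Chka, which starts the choline branch of phosphatidylcholine synthesis, gave -0.67 (SE 0.20, adjusted limma p 0.140, and 0.0428 in the block fit) and -0.54 in its 2 tested probe sets. Of the 13 probe sets of this list only that of Abcb4 passed, and 2 had an unadjusted limma p under 0.05.

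Downstream of Cth, in the cysteine, taurine and sulfide list, 0 of 18 probe sets passed by limma and 6 had an unadjusted p under 0.05. Csad, which decarboxylates cysteine sulfinate on the way to taurine, gave -0.71 (SE 0.18) and -0.69 (SE 0.18), with adjusted limma p of 0.0796 and 0.0863. Both probe sets of Csad passed in the block fit, at 0.00934 and 0.0114. Cdo1, which makes cysteine sulfinate, gave 0.40 and 0.32, with adjusted limma p of 0.233 and 0.256. The differences of Cth and Cdo1 were above 0 and those of Csad below 0.

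Among the other methyltransferases 0 of 7 probe sets passed and 2 had an unadjusted p under 0.05, both of Mettl7b, named as a methyltransferase-like protein. These were -0.42 (SE 0.10) and -0.43 (SE 0.11), with adjusted limma p of 0.0633 and 0.0805 and all deficient values below all sufficient ones, and both passed in the block fit, at 0.0127 and 0.0179. Pnmt, which makes adrenaline, gave -0.27.

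In the remethylation list 0 of 9 probe sets passed by limma and 2 had an unadjusted p under 0.05. They were Dmgdh, which demethylates the dimethylglycine that Bhmt leaves, with 0.46 (SE 0.16, adjusted limma p 0.213, and 0.0489 in the block fit), and Mat2a, the methionine adenosyltransferase of other tissues, with 0.34 (SE 0.14, adjusted limma p 0.315). In the folate list 0 of 10 passed and 1 had an unadjusted p under 0.05. Aldh1l1, which oxidises formyl-tetrahydrofolate, gave -0.49 (SE 0.19, adjusted limma p 0.269), and the 2 probe sets of Slc19a1, which carries reduced folates into cells, gave 0.22 (SE 0.12, adjusted limma p 0.440) and 0.20.

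The polyamine list, which draws on decarboxylated S-adenosylmethionine, had 0 of 6 probe sets passing and 0 with an unadjusted limma p under 0.05. Odc1, the ornithine decarboxylase, gave -0.27 and -0.22, and Azin1, which relieves its inhibitor, -0.17 and -0.07. The creatine list had 0 of 5 passing and 0 with an unadjusted limma p under 0.05, with 0.31 for Ckmt1 and -0.60 (SE 0.58) for Ckm, both creatine kinases. Gatm, which makes the guanidinoacetate that Gamt uses, was under the filter, at 6.06 ± 0.17 in deficient livers and 6.44 ± 0.42 in sufficient livers (SD, n = 4 each).

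**Figure D4:**
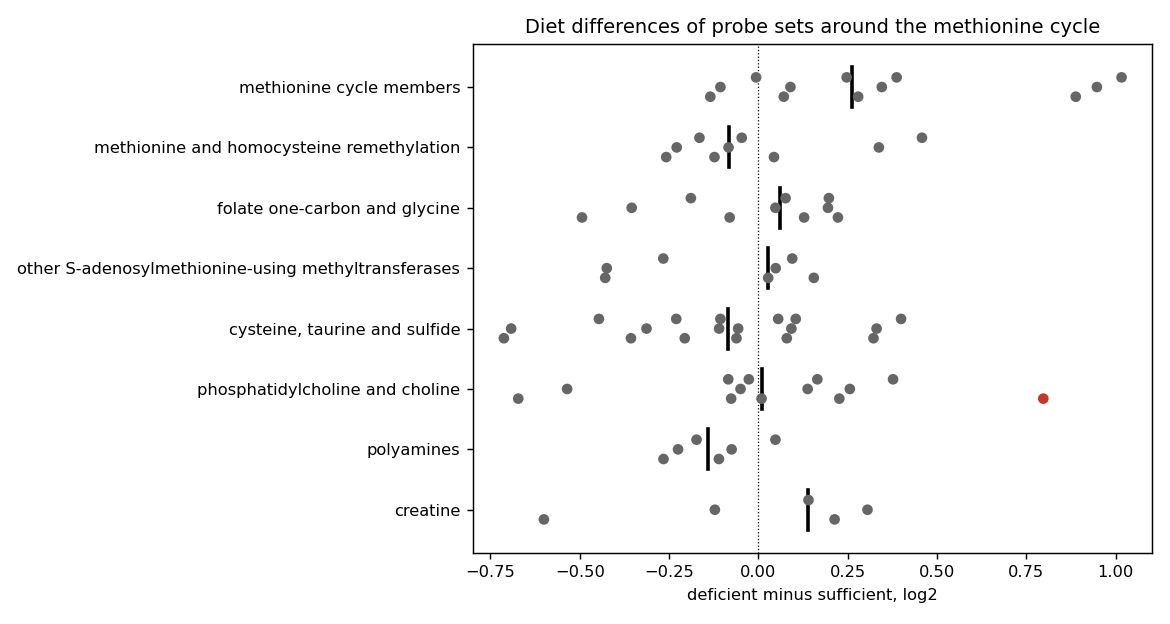
Deficient minus sufficient difference on the log2 scale of each tested probe set of the members and of the 7 wider lists, with a black bar at each list's median and red for a difference that passed. The members' median of 0.26 is the highest of the 8 rows, and the only red point is Abcb4 at 0.80.

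The tissue label was checked against markers. The brightest albumin probe set read 15.52 in deficient and 15.33 in sufficient livers. Of 21 hepatocyte probe sets 19 were tested, 1 of Fgb and 1 of Cps1 being under the filter. By limma 0 of the 19 passed (5 at an unadjusted p under 0.05). Of the 19 differences 18 were above 0 and 1 below, with a median of 0.15 against 0.04 over all probe sets tested. The hepatocyte sums of scaled intensity were 409417 to 484944 in deficient replicates and 342282 to 439460 in sufficient ones. Enzymes of the cycle differ along the liver lobule, and pericentral markers gave 1 probe set of 12 that passed, of Oat, lower by 1.11. All 12 had an unadjusted limma p under 0.05. The 9 below 0 were those of Oat, Glul and Cyp1a2, from -1.11 to -0.41. The 3 above 0 were all of Cyp2e1, from 0.29 to 0.43. The pericentral sums were 99684 to 111809 in deficient and 89025 to 113079 in sufficient replicates. Sums weigh bright probe sets most, and the brightest here, of Cyp2e1, read 15.26 in deficient and 14.83 in sufficient livers. Periportal markers gave 2 of 9 that rose, Sds by 2.09 and Arg1 by 0.63, and 4 with an unadjusted p under 0.05. Of the 9 differences 7 were above 0 and 2 below, among them Pck1 at -0.62. The periportal sums were 26247 to 33724 in deficient and 22147 to 29739 in sufficient replicates. Erythroid markers gave 4 of 7 that fell, with all 7 below 0 and 5 at an unadjusted p under 0.05. Their sums were 3971 to 6648 in deficient and 12417 to 15405 in sufficient replicates. Macrophage markers gave 1 of 12 that rose, Lgals3, with 11 of the 12 above 0 and 3 at an unadjusted p under 0.05. Their sums were 13254 to 16539 in deficient and 11015 to 11648 in sufficient replicates. Stellate cell and fibroblast markers gave 1 of 20 that rose, Vim by 0.80, and 5 with an unadjusted p under 0.05. Of these 20 differences 10 were above 0 and 10 below, the lowest that of Dcn at -0.87. Endothelial markers gave 1 of 4 that fell, Lyve1 by 1.04, and 2 with an unadjusted p under 0.05. Of these 4 differences 3 were below 0 and that of Pecam1 was 0.22. By limma 0 of 5 cholangiocyte, 0 of 4 lymphocyte, 0 of 1 kidney and 0 of 2 pancreas probe sets passed, with 3, 1, 0 and 0 at an unadjusted p under 0.05. Of all 5244 probe sets tested 1.72% passed and 14.5% had an unadjusted p under 0.05. Of the 6 kidney probe sets, that of Umod lay above the filter, at 7.28 in deficient and 7.22 in sufficient livers, those of Aqp2 (5.99 and 5.15 in deficient, 6.08 and 4.96 in sufficient livers) and Slc22a6 (5.90 in deficient, 5.47 in sufficient livers) lay below it, and those of Slc12a1 and Kap were near the floor of 4, at 4.21 and 4.41 in deficient and 4.20 and 4.46 in sufficient livers. The part of these markers in the differences of Cth, Bhmt and Ahcy was not tested.

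RNA quality was read from control probe sets. The log2 ratio of the 3′ to the 5′ probe set of GAPDH was 0.81 ± 0.26 in deficient and 0.74 ± 0.15 in sufficient livers (SD, n = 4 each; exact permutation p 0.743), and that of beta-actin 0.51 ± 0.14 in deficient and 0.60 ± 0.18 in sufficient livers (exact permutation p 0.457). On all 14 arrays the deposited trimmed mean lay between 1001.9 and 1002.1 and the median between 175.1 and 231.0.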

How the data were processed

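Liver total RNA was measured on 14 Affymetrix rat arrays. The deposited table holds 1 linear intensity per probe set and array, scaled by the authors to a common trimmed mean, as its values show. The program is not given in the sources used here. RNA extraction by column and target preparation from about 10 or 2 µg are per the labels. All columns matched a title and 0 were left out. Gene symbols are those of the platform annotation (7006 probe sets with 1 symbol, 308 with several, 1426 with none listed), and all 247 probe sets of members and lists matched an Entrez gene of RefSeq GRCr8.

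Each array was rescaled to a 2% trimmed mean of 500 without the 59 control probe sets, and log2 was taken after adding 16 to the deposited intensity so rescaled, which understates differences of dim genes. Probe sets under the 40th percentile of mean level (6.196) were left out, leaving 5244. The mean shift between amounts over 6 pairs of arrays was removed before arrays of 1 diet and number were averaged. The diet test was limma 3.58.1 (R 4.3.3) on these 8 values, with eBayes and a trend, two-sided, with Benjamini-Hochberg adjustment over all tested probe sets, and scripts were tested on simulated data. Amount and its interaction with diet were fitted on 14 arrays.

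Arrays of 1 diet and number at both amounts deviated together (r from 0.202 to 0.351 in 6 pairs, against -0.254 to 0.124 for other numbers), so a fit with that block is given where it changes a call. This pairing rests on the values and on the number in the titles; no label states it.

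The members and all lists were chosen with earlier results of these data known. Every member probe set is named, each listed gene that passed, the 2 genes of each list with the smallest p, and the 3 most similar probe sets per member. Marker genes, Gatm and the differences between members were named with their values known. The alternatives tried were scaling, normalization, pseudocount, filter, variance model, choice of arrays, blocks and leaving out each replicate.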

Additional observations from a re-analysis of the deposited data

Results flagged for a closer look

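Of the 24 groups of 4 replicates, 1 had a replicate set far apart from the others, where chance gives about 1.2. For Pemt, sufficient replicate 3 read 11.32 and the nearest other sufficient replicate 11.78, a gap of 0.870 of the group's range. The value rests on a single 10 µg array. The 4 deficient Pemt values lay between 11.70 and 11.94.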

How the results depend on the processing

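Of 264 member differences under alternatives, 244 kept their direction and stayed short of the threshold, 12 were newly past it and 8 changed sign, those of Cbs, Gnmt rc_AA893219_at and Pemt. The probe sets called by diet numbered 33 with 2 µg arrays alone, 349 with 14 separate arrays and amount as a covariate, 250 with the random block of diet and number, and 52 to 95 with a replicate left out. With scaling to a common median 75 were called, 17 higher and 58 lower, in place of 38 and 52. Member probe sets called numbered 1 with array weights, 4 with 14 separate arrays, 4 with the random block, and 0 to 1 with a replicate left out. Wider probe sets called numbered 0 with a common median, with no filter, without the trend and with 2 µg arrays alone, 8 with 14 separate arrays, 7 with the random block, and 0 to 3 with a replicate left out. The amount comparison called 2 probe sets with the replicate block over 6 pairs. Cbs had the other sign by diet with 2 µg arrays alone (0.061) and with 14 separate arrays (0.0024), ranging from -0.088 to 0.076 with a replicate left out, and by amount with the replicate block (0.025) and a common median (0.0058). With a replicate left out, Gnmt rc_AA893219_at ranged from -0.035 to 0.16 and Pemt from -0.036 to 0.14. The 2 fits of 14 arrays enter more samples by construction, and the cause of the other shifts was not tested.

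The replicate number did not pair the diets: same-numbered deviations correlated at -0.076 to 0.067 and 1 of 4 was best with its own number. With the number as a replicate block, 78 probe sets were called, 29 higher and 49 lower, 0 of them members.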
